A study of Mus musculus with 12 samples.

Results

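The Hox genes encode homeodomain transcription factors that lie in 4 clusters, Hoxa, Hoxb, Hoxc and Hoxd. Within a cluster the paralogue number follows the order of the genes along the chromosome: genes of low number act in the hindbrain and neck, and genes of high number in the lower trunk, the distal limb and the genital region. Cultured fibroblasts keep much of the Hox pattern of the body site they came from, and Polycomb and trithorax complexes hold that pattern through cell division. Hox proteins bind DNA largely together with cofactors of the TALE homeodomain class, the Pbx, Meis and Pknox proteins. Every entry of the deposited expression table whose name is Hox, a cluster letter and a number was taken, which gave 37 of 19439 entries: 11 of Hoxa, 10 of Hoxb, 9 of Hoxc and 7 of Hoxd. Hoxd1 and Hoxd12 were not analysed here.

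RNA sequencing was done on 12 samples of 2 immortalised mouse embryonic fibroblast (MEF) lines of the 3T3 type, with 3 samples in each of 4 groups. These were p53-null 3T3 cells in glutamine-free DMEM, p53-null 3T3 cells in complete DMEM, 3T3 cells with wild-type (WT) p53 in glutamine-free DMEM, and WT 3T3 cells in complete DMEM. Cells were kept in either medium for 18 h. All had been grown in DMEM with 25 mM glucose and 2 mM glutamine, and the complete medium again held 2 mM glutamine. Each genotype is represented by 1 line, so the absence of p53 and the identity of the line cannot be told apart. The labels give neither the embryonic region nor the embryos behind either line. The labels do not say whether the 3 samples of a group were grown as separate cultures. P-values therefore measure only how far these samples spread, which may be technical.

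The values were RPKM, reads scaled to the gene's length in kilobases and to the mapped reads of the sample, which can be compared between genes. They summed to 284426 to 319735 per sample over all entries. Read counts were not available, so the depth behind a low value is unknown. Trp53, which encodes p53, was at 27.9 to 35.2 RPKM in the p53-null samples and 57.8 to 114 RPKM in the WT samples: lower in the p53-null line, but not absent. The labels do not say which part of the gene is altered, so this value checks them only in part. Of 12 fibroblast markers, 9 to 10 reached 1 RPKM in every group, with a summed level of 1430 to 2524 RPKM in p53-null and 907.5 to 3229 RPKM in WT samples. Lum was listed at 0 in all 6 p53-null samples and Thy1 in the 3 WT glutamine-free samples. Of 6 epithelial markers, 2 reached 1 RPKM in the p53-null line (sum 77.2 to 84.7 RPKM, mostly Krt18 and Krt19) and 0 in WT (sum 0.0691 to 0.253 RPKM). Of 6 neural markers, 1 reached 1 RPKM in p53-null (sum 1.34 to 1.99 RPKM) and 4 in WT samples (sum 23.9 to 46.2 RPKM). Of 4 muscle markers 2 reached 1 RPKM in p53-null cells and at most 1 in WT cells, of 6 blood markers 2 and at most 1, and of 5 endothelial markers 1 and 0. These other markers moved with the line, as the Hox genes did, and their part in the Hox differences was not tested. In bulk RNA, fewer cells that express a gene and less RNA per cell cannot be told apart.

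The 2 lines carried different Hox patterns. WT cells expressed Hoxa2 to Hoxa10 and Hoxb2 to Hoxb4, with Hoxb5 to Hoxb9, all of Hoxc and all of Hoxd at or near 0. The p53-null cells expressed Hoxa3 to Hoxa10, Hoxb3 to Hoxb9, Hoxc4 to Hoxc9 and Hoxd4 and Hoxd8, with Hoxa2 and Hoxc10 near 1 RPKM and little Hoxb2. At a level of 1 RPKM in all 3 samples of a group, 21 of the 37 genes counted as expressed in p53-null cells in either medium and 12 in WT cells in either medium. By cluster, the p53-null count in either medium was 7 Hoxa, 7 Hoxb, 5 Hoxc and 2 Hoxd genes. The WT count was 9 Hoxa, 3 Hoxb, 0 Hoxc and 0 Hoxd genes. The heat map of mean levels shows both patterns.

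**Figure D1:**
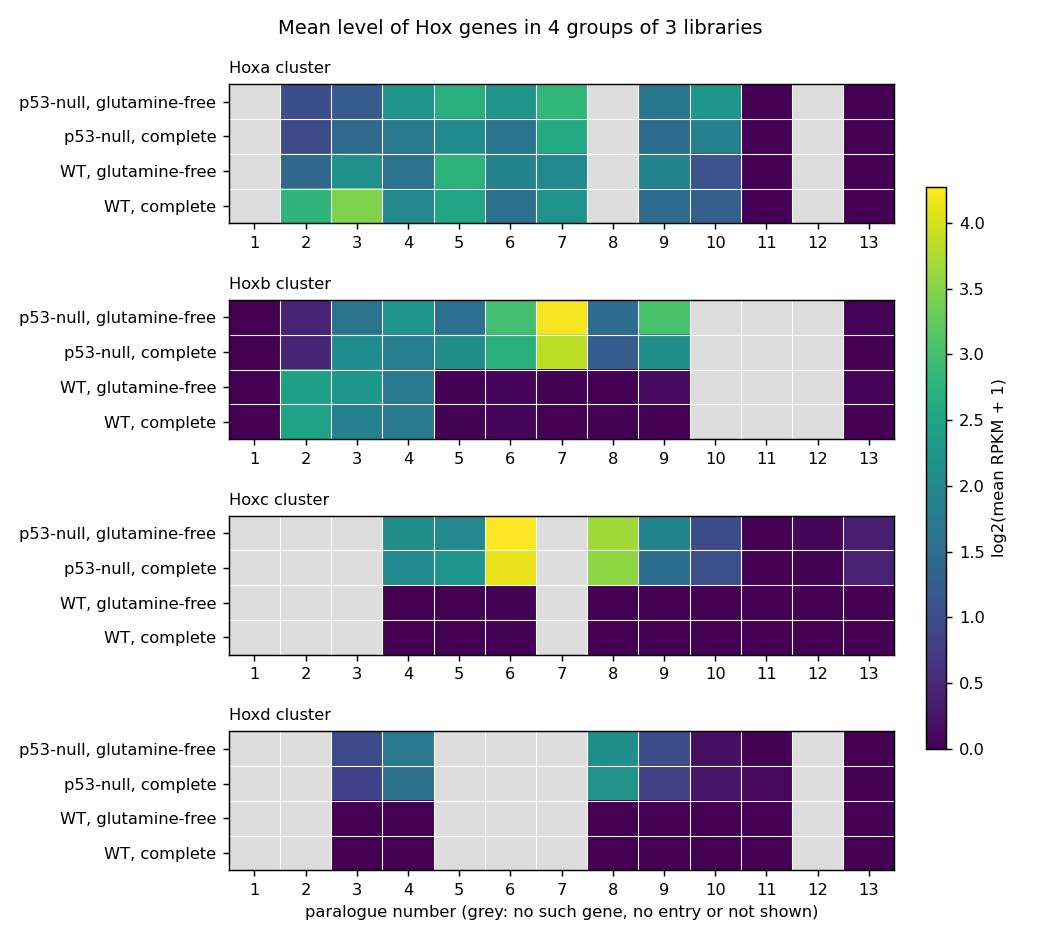
Mean level of the Hox genes, as log2(mean RPKM + 1) on the colour scale, for paralogues 1 to 13 (across) of the 4 clusters and the 4 groups (down), with 3 samples per group; grey marks positions with no gene, no entry or no value shown. The WT rows are dark from Hoxb5 on and through Hoxc and Hoxd. There the p53-null rows are filled at Hoxb5 to Hoxb9, Hoxc4 to Hoxc9, Hoxd4 and Hoxd8, and dark or nearly so at paralogues 11 to 13. Hoxa2 and Hoxa3 are brightest in WT cells in complete medium, and Hoxb2 is brighter in both WT rows.

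Summed over a cluster, Hoxa stood at 28.5 ± 0.747 RPKM in p53-null glutamine-free and 21.0 ± 0.639 RPKM in p53-null complete samples, against 23.8 ± 0.214 RPKM in WT glutamine-free and 36.0 ± 0.389 RPKM in WT complete samples (SD, n = 3 each, here and below). Hoxb summed to 41.8 ± 0.893 and 33.1 ± 0.632 RPKM in the p53-null glutamine-free and complete groups, against 10.6 ± 0.588 and 9.69 ± 0.465 RPKM in the WT glutamine-free and complete groups. The Hoxc sum was 40.5 ± 0.772 RPKM in p53-null glutamine-free and 37.2 ± 0.456 RPKM in p53-null complete samples, and at most 0.0427 RPKM in any WT sample. The Hoxd sum was 7.68 ± 0.300 RPKM in p53-null glutamine-free and 7.32 ± 0.154 RPKM in p53-null complete samples, and every Hoxd gene was listed at 0 in every WT sample. Hoxa thus made up 24.0% and 21.3% of all Hox RPKM in p53-null glutamine-free and complete samples, against 69.1% and 78.7% in WT glutamine-free and complete samples.

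The start regions of 4 genes are printed because they stand on either side of the difference: Hoxb4 was on in both lines, whereas Hoxb8, Hoxc4 and Hoxd8 were on in the p53-null line alone. The windows are from RefSeq on GRCm38.p6, plus strand, and run from 250 bases before an annotated start to 50 bases after it. Capitals mark CG pairs, the sites of DNA methylation. They are Hoxb4 at chr11:96318017-96318316, Hoxb8 at chr11:96281655-96281954, Hoxc4 at chr15:103034145-103034444 and Hoxd8 at chr2:74704365-74704664. The Hoxc4 window belongs to a start inside the annotated gene, which begins at position 103018934.
Hoxb4: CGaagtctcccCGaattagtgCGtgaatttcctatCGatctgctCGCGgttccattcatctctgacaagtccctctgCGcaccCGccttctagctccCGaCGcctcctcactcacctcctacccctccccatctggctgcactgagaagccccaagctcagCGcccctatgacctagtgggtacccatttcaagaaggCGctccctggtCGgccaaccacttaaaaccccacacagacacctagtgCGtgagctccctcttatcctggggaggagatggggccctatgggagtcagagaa
Hoxb8: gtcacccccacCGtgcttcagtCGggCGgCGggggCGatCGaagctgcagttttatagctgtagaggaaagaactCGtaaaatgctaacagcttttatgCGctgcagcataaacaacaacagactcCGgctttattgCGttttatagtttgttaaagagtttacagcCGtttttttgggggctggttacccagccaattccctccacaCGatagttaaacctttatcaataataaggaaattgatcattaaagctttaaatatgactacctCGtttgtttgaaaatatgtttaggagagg
Hoxc4: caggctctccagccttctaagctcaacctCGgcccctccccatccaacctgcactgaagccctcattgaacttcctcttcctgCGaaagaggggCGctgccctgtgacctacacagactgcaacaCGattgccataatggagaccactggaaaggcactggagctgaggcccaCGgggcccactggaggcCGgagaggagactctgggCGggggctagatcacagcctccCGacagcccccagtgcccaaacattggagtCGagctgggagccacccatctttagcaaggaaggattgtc
Hoxd8: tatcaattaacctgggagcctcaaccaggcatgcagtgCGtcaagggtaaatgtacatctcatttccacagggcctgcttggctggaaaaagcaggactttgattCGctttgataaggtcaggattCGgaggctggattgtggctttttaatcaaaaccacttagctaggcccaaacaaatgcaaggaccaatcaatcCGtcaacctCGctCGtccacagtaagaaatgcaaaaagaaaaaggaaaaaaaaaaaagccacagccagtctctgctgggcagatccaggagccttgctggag
These windows held 14, 13, 9 and 6 CG pairs for Hoxb4, Hoxb8, Hoxc4 and Hoxd8. RefSeq windows were found for 20 of the 37 genes, 22 windows in all, with a median of 14.5 CG pairs and a range of 4 to 45, beside a median of 7 over all 32851 promoter windows. The letters TGATTNAT, a sequence that Pbx-Hox pairs can bind, stood on either strand in 2 of the 22 windows (9.09%), those of Hoxa2 and Hoxd11, beside 3.22% of all promoters. TATAAA stood in 4 (18.2%, beside 13.6% of all) and CCAAT in 13 (59.1%, beside 37.4%), on either strand and whether or not matches overlapped. No methylation or binding was measured, so these counts describe the letters alone.

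Between the lines, 25 of the 37 genes could be tested, those that reached 1 RPKM in 3 or more of the 12 samples. Of these, 13 passed through the p53-null samples alone and so had to differ. Another 2 passed through WT samples alone, and of these Hoxb2, under 1 RPKM in all p53-null samples, had to differ as well. The other 10 passed in both lines (Hoxa2 to Hoxa10, Hoxb3 and Hoxb4). Among those 10, in complete medium, 3 were higher in p53-null cells, 4 were lower and 3 did not pass (limma on log2(RPKM + 1), adjusted p under 0.05). In glutamine-free medium the 10 split into 5 higher, 4 lower and 1 that did not pass. Over all 11461 genes tested, 90.9% passed between the lines in complete medium and 91.4% in glutamine-free medium, so passing the test does not set the Hox genes apart. Higher calls made up 48.4% and lower ones 42.5% of all genes in complete medium, against 51.4% and 40% in glutamine-free medium. Passing with an absolute log2 difference of at least 1 was rarer over all genes, at 20% in complete medium and 18.6% in glutamine-free medium. In complete medium 16 of the 25 Hox genes were higher and 6 lower, and in glutamine-free medium 18 were higher and 5 lower. In complete medium 13 Hox genes were higher by that much, beside 9.14% of all genes, and 4 were lower, beside 10.9%. In glutamine-free medium 14 were higher, beside 10.7% of all genes, and 1 was lower, beside 7.88%. The 13 higher genes of complete medium are those that had to differ, and Hoxa10 is the further one of glutamine-free medium, so these counts are a description. In the values that follow, the 3 samples of a group are given in the order 1 to 3.

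The Hoxb cluster, on chromosome 11, held the sharpest change along the DNA. Hoxb2, a gene of hindbrain segments, was at 0.368, 0.438 and 0.244 RPKM in p53-null glutamine-free and 0.350, 0.275 and 0.428 RPKM in p53-null complete samples, against 4.53, 4.51 and 4.09 RPKM in WT glutamine-free and 5.06, 4.58 and 4.01 RPKM in WT complete samples. All 6 p53-null samples lay under all 6 WT samples, and the log2 difference was -2.04 ± 0.07 (SE) in complete medium (limma, adjusted p = 9.2e-12) and -1.995 ± 0.072 in glutamine-free medium (adjusted p = 1.2e-11). Hoxb2 passed the filter through the WT samples alone and so had to differ, which makes these values a description. Its neighbours Hoxb3 and Hoxb4, whose values are given because they border the change and were chosen after they were seen, were on in both lines. Hoxb3 averaged 3.22 ± 0.0655 RPKM in p53-null and 2.69 ± 0.0320 RPKM in WT cells in complete medium. Hoxb4, a gene much studied in blood stem cells, averaged 2.58 ± 0.0915 RPKM in p53-null and 2.38 ± 0.0623 RPKM in WT cells in complete medium. That difference did not pass (log2 0.08 ± 0.04, limma, adjusted p = 0.075). Hoxb2 and Hoxb3 share 27.3% and 52.9% of their exon bases with Hoxb3os on the other strand. The library kit does not mark strand, so reads of that transcript may be counted in either gene.

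From Hoxb5 on, the 2 lines separated fully. The end of Hoxb5 (chr11:96303336-96306121, plus strand) and the start of Hoxb4 (chr11:96318267-96321638, plus strand) are 12145 bases apart on GRCm38, with Mir10a between them. Over Hoxb5 to Hoxb9, the highest of the 30 WT values was 0.108 RPKM and 10 were listed at 0. Hoxb5, which acts in the neural crest of the gut, was at 1.99, 2.01 and 1.82 RPKM in p53-null glutamine-free and 3.08, 3.48 and 3.47 RPKM in p53-null complete samples, against at most 0.0280 RPKM in WT samples. Hoxb6, a gene of the lateral plate mesoderm, was at 6.28, 7.10 and 7.55 RPKM in p53-null glutamine-free and 5.98, 5.16 and 5.60 RPKM in p53-null complete samples, against at most 0.0802 RPKM in WT samples. Hoxb7, active in the trunk and in the branching ducts of the kidney, was the highest Hoxb gene of the p53-null line. It stood at 17.5, 18.1 and 17.3 RPKM in p53-null glutamine-free and 13.4, 12.8 and 13.7 RPKM in p53-null complete samples, while 5 of 6 WT samples were listed at 0 and the other was at 0.0418 RPKM. Hoxb8, known for its ability to hold myeloid progenitors in an immature state, was at 1.83, 1.81 and 1.99 RPKM in p53-null glutamine-free and 1.45, 1.35 and 1.31 RPKM in p53-null complete samples, against at most 0.0201 RPKM in WT samples. Hoxb9, a thoracic patterning gene, was at 7.07, 7.05 and 7.55 RPKM in p53-null glutamine-free and 3.13, 3.49 and 3.40 RPKM in p53-null complete samples. In WT samples Hoxb9 was at 0.108, 0.104 and 0.0676 RPKM without glutamine and listed at 0 in all 3 samples with it. These 5 genes passed the filter through the p53-null samples alone and so had to differ between the lines, which makes their values a description.

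The Hoxc cluster, on chromosome 15, was on in the p53-null line and near 0 in WT cells, where 46 of 54 values were listed at 0 and the highest was 0.0333 RPKM. Hoxc6 (chr15:102998257-103011881, plus strand), a gene of the neck-to-thorax boundary and of limb-level motor neurons, was the most abundant Hox gene of the p53-null line. It was at 18.6, 18.3 and 18.0 RPKM in p53-null glutamine-free and 16.3, 16.4 and 16.5 RPKM in p53-null complete samples, against at most 0.0333 RPKM in WT samples. Hoxc8, a thoracic gene, followed at 12.2, 11.4 and 11.3 RPKM in p53-null glutamine-free and 10.9, 10.3 and 10.6 RPKM in p53-null complete samples, with 5 of 6 WT samples listed at 0. Hoxc4 and Hoxc5, which act in the neck, were lower. Hoxc4 was at 3.23, 3.13 and 3.65 RPKM in p53-null glutamine-free and 2.61, 3.19 and 3.47 RPKM in p53-null complete samples, with 5 of 6 WT samples listed at 0. Hoxc5 was at 2.99, 2.98 and 3.12 RPKM in p53-null glutamine-free and 3.77, 3.84 and 3.65 RPKM in p53-null complete samples, with 5 of 6 WT samples listed at 0. Hoxc9, which sets thoracic identity in motor neurons, was at 2.87, 2.75 and 2.75 RPKM in p53-null glutamine-free and 1.796, 1.86 and 2.12 RPKM in p53-null complete samples. Hoxc10, a lumbar gene, was at 1.09, 0.808 and 1.15 RPKM in p53-null glutamine-free and 1.17, 1.08 and 0.951 RPKM in p53-null complete samples, around the level set here for expression, with all 6 WT samples listed at 0. Levels in the p53-null line thus were highest at Hoxc6 and Hoxc8 and lower to either side in cluster order.

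Of the Hoxd genes, on chromosome 2, Hoxd8 (chr2:74704615-74707933, plus strand) was the highest in the p53-null line, at 3.22, 3.36 and 3.48 RPKM in glutamine-free and 3.72, 3.23 and 3.51 RPKM in complete samples. Hoxd4, a gene of the upper neck, was at 2.14, 2.28 and 2.24 RPKM in p53-null glutamine-free and 1.93, 2.20 and 1.82 RPKM in p53-null complete samples. All 42 Hoxd values of the WT line were listed at 0. Hoxd4 shares 52.3% of its exon bases with annotated genes of the same strand, Hoxd3 among them, so how the authors split those reads could move its value. The other Hoxd genes did not reach the test: Hoxd9 was at 0.941, 1.03 and 1.05 RPKM in p53-null glutamine-free and 0.792, 0.721 and 0.783 RPKM in p53-null complete samples, and Hoxd3 was at 0.794 to 1.005 RPKM over the 6 p53-null samples.

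**Figure D2:**
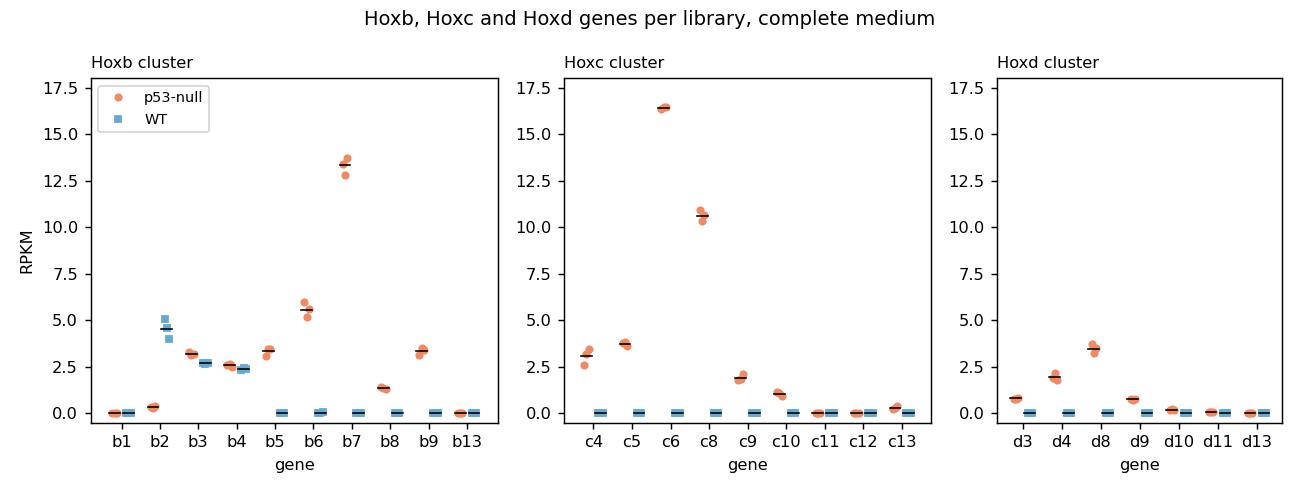
Level in RPKM of each Hoxb, Hoxc and Hoxd gene in the 3 samples of each line in complete medium, p53-null samples as circles on the left and WT samples as squares on the right of each gene, with a line at the mean. Hoxb2 is the gene with WT above p53-null, Hoxb3 and Hoxb4 are near each other, and from Hoxb5 on the WT squares lie on the axis while Hoxb7 and Hoxc6 reach 13.3 ± 0.468 and 16.4 ± 0.0639 RPKM in the p53-null line.

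The 12 genes left out of the test were Hoxa11, Hoxa13, Hoxb1, Hoxb13, Hoxc11, Hoxc12, Hoxc13, Hoxd3, Hoxd9, Hoxd10, Hoxd11 and Hoxd13. The highest value among them was 1.05 RPKM in p53-null samples and 0.0585 RPKM in WT samples, and 9 of the 12 were listed at 0 in all 6 WT samples. With the exception of Hoxb1 and Hoxd3, these are the high-numbered genes that pattern the distal limb, the tail and the genital tubercle. Neither line expressed the genes of groups 11 to 13 at 1 RPKM. Hoxc13, which acts in hair follicles, was at 0.201, 0.420 and 0.227 RPKM in p53-null glutamine-free and 0.254, 0.289 and 0.379 RPKM in p53-null complete samples, and was listed at 0 in WT samples.

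The Hoxa cluster, on chromosome 6, was the one cluster on in both lines over most of its length. There the lines differed by position in complete medium. Hoxa2 and Hoxa3, genes of the hindbrain and the pharyngeal arches, were lower in p53-null cells in complete medium. Hoxa3 (chr6:52169062-52213336, minus strand), needed for the thymus and parathyroid, was at 1.70, 1.82 and 1.84 RPKM in p53-null complete samples, against 9.76, 10.2 and 9.88 RPKM in WT complete samples. It was the highest Hox gene of the WT line in complete medium, and the log2 difference was -1.97 ± 0.03 (limma, adjusted p = 3.5e-15). Hoxa2, the selector gene of the second pharyngeal arch, was at 1.16, 0.973 and 0.814 RPKM in p53-null complete samples, against 5.88, 5.75 and 6.23 RPKM in WT complete samples, a log2 difference of -1.81 ± 0.06 (adjusted p = 3.6e-12). The groups did not overlap for either gene.

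Further along the cluster the order turned round. Hoxa7, a trunk gene and the highest Hoxa gene of the p53-null line, was at 4.85, 4.91 and 5.49 RPKM in p53-null complete samples, against 3.26, 3.69 and 3.57 RPKM in WT complete samples (log2 difference 0.43 ± 0.05, limma, adjusted p = 4.5e-06). Hoxa10, a lumbar gene that also patterns the uterus, was at 2.58, 2.80 and 2.62 RPKM in p53-null complete samples, against 1.21, 1.58 and 1.57 RPKM in WT complete samples (log2 difference 0.58 ± 0.06, adjusted p = 1.2e-06). In glutamine-free medium Hoxa10 was at 3.44, 4.06 and 3.74 RPKM in p53-null samples, against 1.08, 1.22 and 1.09 RPKM in WT samples, a log2 difference of 1.15 ± 0.06 (adjusted p = 9e-10). Hoxa5, a gene of the neck and the lung, was lower in the p53-null line in complete medium (log2 difference -0.45 ± 0.04, adjusted p = 4e-07), and so was Hoxa4 (-0.25 ± 0.06, adjusted p = 0.0025). Hoxa6 and Hoxa9 gave differences of 0.10 ± 0.07 and -0.01 ± 0.06 that did not pass (adjusted p = 0.17 and 0.92). In glutamine-free medium this order by position was not kept. Hoxa4 was higher there in p53-null cells (0.66 ± 0.06, limma, adjusted p = 3.7e-07), and Hoxa9 was lower (-0.25 ± 0.06, adjusted p = 0.0013). Several Hoxa genes share exon bases with transcripts of the other strand, 25.4% for Hoxa3, 20.4% for Hoxa7 and 16% for Hoxa4, and without strand those reads cannot be told apart. Hoxa2 and Hoxa3 also share 15% and 8.01% of their exon bases with Gm28308, an annotated gene of the same strand. How the authors split those reads could move both values, so the 2 genes may not be fully separate measures.

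The second question was whether 18 h without glutamine moved the Hox genes. In p53-null cells the same 21 genes were at 1 RPKM or more in all 3 samples in each medium. After rescaling to the same RPKM sum, 23 genes met that level without glutamine and 21 in complete medium. Of the 25 tested genes 16 rose, 4 fell and 5 did not pass, where 82% of all genes passed, 50% of all genes being higher and 32% lower. None changed by 1 or more on the log2 scale, which 3.31% of all genes did, and the changes ran from -0.56 to 0.92. After median centring of the libraries the split was 11 higher and 6 lower, so the excess of rises over falls depends in part on the scaling.

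Hoxb9 had the largest change of the p53-null line. Its values, given above, were higher in all 3 glutamine-free samples than in any complete sample, with a log2 change of 0.92 ± 0.04 (limma, adjusted p = 1.3e-10) and a ratio of mean RPKM of 2.16. Hoxa5 rose to 5.18, 5.75 and 5.46 RPKM in p53-null glutamine-free samples, against 3.08, 3.30 and 3.21 RPKM in p53-null complete samples, without overlap (log2 change 0.62 ± 0.04, adjusted p = 2.5e-08). Hoxa6, Hoxa4, Hoxb4, Hoxb7, Hoxc9 and Hoxa10 rose by 0.37 to 0.55 on the log2 scale. The 4 genes that fell were Hoxb5 (-0.56 ± 0.04, adjusted p = 3.2e-08), Hoxb3 (-0.43 ± 0.04, adjusted p = 3.2e-07), Hoxa3 (-0.25 ± 0.03, adjusted p = 1e-05) and Hoxc5 (-0.24 ± 0.03, adjusted p = 7.2e-06). Hoxb5 and Hoxb3 therefore went the other way from Hoxb4, which lies between them and rose by 0.38 ± 0.04 (adjusted p = 2.2e-06), and from Hoxb6 to Hoxb9 on the other side, of which Hoxb6 (0.28, adjusted p = 0.00074) was not called with a pseudocount of 0.1 (adjusted p = 0.08). The small rises of Hoxd4 (0.11, adjusted p = 0.029), Hoxc8 (0.12, adjusted p = 0.0037), Hoxa9 (0.15, adjusted p = 0.031) and Hoxc6 (0.15, adjusted p = 0.0002) were not called after median centring (0.01, 0.02, 0.04 and 0.04). With a pseudocount of 0.1 Hoxd4, Hoxc8 and Hoxc6 were not called, nor were Hoxc8 and Hoxc6 after quantile normalization. The Hoxd4 call was lost without p53-null complete sample 1 or 3 (adjusted p = 0.085 and 0.14) and without p53-null glutamine-free sample 2 or 3 (0.086 and 0.072). The Hoxa9 call was lost without p53-null complete sample 3 (adjusted p = 0.12) and without p53-null glutamine-free sample 2 or 3 (0.11 and 0.093).

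**Figure D3:**
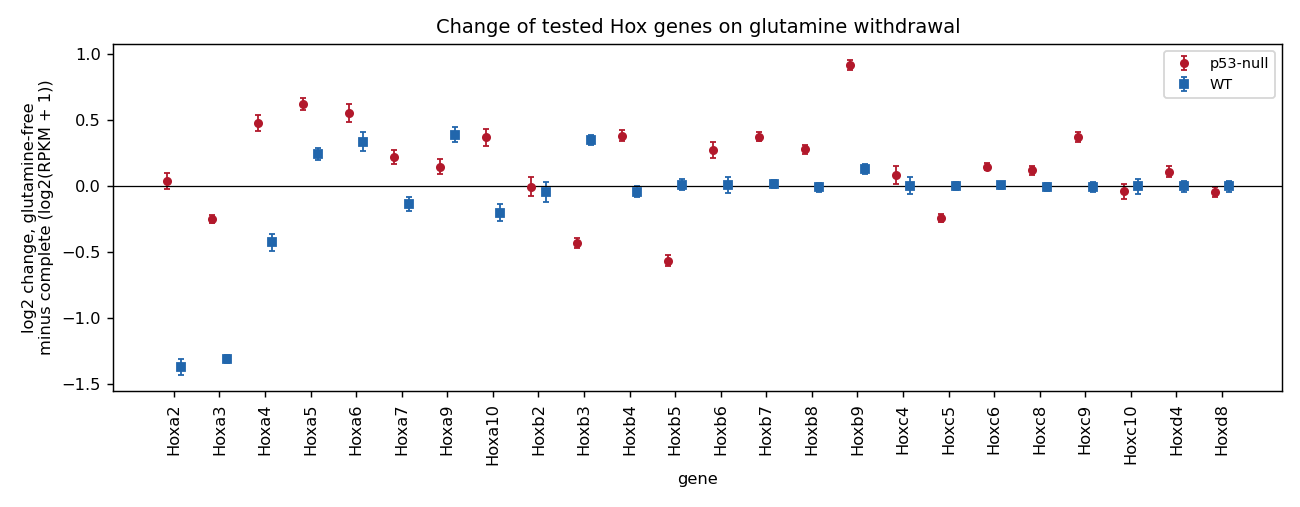
Change in log2(RPKM + 1), glutamine-free minus complete, of tested Hox genes, with p53-null on the left and WT on the right; points are limma estimates and bars their SE. In WT cells Hoxa2 and Hoxa3 stand apart at -1.37 and -1.31, and in p53-null cells Hoxb9 is highest at 0.92 and Hoxb5 lowest at -0.56.

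In WT cells withdrawal lowered Hoxa2 and Hoxa3 while the same 12 genes were at 1 RPKM or more in all 3 samples in each medium. After rescaling to the same RPKM sum, 11 met that level without glutamine and 12 in complete medium, and at a level of 2 RPKM 8 did so without glutamine and 9 in complete medium. Hoxa2 fell to 1.72, 1.59 and 1.76 RPKM in WT glutamine-free samples, against 5.88, 5.75 and 6.23 RPKM in WT complete samples, a log2 change of -1.37 ± 0.06 (limma, adjusted p = 6.4e-11). Hoxa3 fell to 3.52, 3.32 and 3.40 RPKM in WT glutamine-free samples, against 9.76, 10.2 and 9.88 RPKM in WT complete samples (-1.31 ± 0.03, adjusted p = 1.8e-13). Neither gene overlapped between media, and the glutamine-free means were 0.284 and 0.343 of the complete means for Hoxa2 and Hoxa3. The next gene, Hoxa4, fell by less (-0.42 ± 0.06, adjusted p = 3e-05), and beyond it Hoxa5, Hoxa6 and Hoxa9 rose by 0.24 ± 0.04, 0.34 ± 0.07 and 0.39 ± 0.06 (adjusted p = 0.00016, 0.00044 and 2.9e-05).

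Over the 25 tested genes 5 rose, 6 fell and 14 did not pass in WT cells, where 90.1% of all genes passed, 46% of all being higher and 44% lower. Most of those that did not pass lay near 0 in WT cells in both media. Of the 12 genes that reached the filter in WT cells, 4 rose and 6 fell. The 3 falls of at least 1 on the log2 scale stand beside 12.9% of all genes, and no Hox gene rose by that much, as 9.75% of all genes did. Hoxb3 rose to 3.89, 3.79 and 3.46 RPKM in WT glutamine-free samples, against 2.69, 2.66 and 2.73 RPKM in WT complete samples (0.35 ± 0.04, adjusted p = 1.6e-06). Hoxb2 and Hoxb4 did not pass, with changes of -0.04 each (adjusted p = 0.59 and 0.39). The remaining falls, of Hoxa10 and Hoxa7, were of -0.20 and -0.13, had groups that overlapped, and turned to 0.052 and 0.083, neither of them called, after quantile normalization. The Hoxa7 call (adjusted p = 0.033) was also lost without WT complete sample 2 or 3 (adjusted p = 0.12 and 0.085) and without WT glutamine-free sample 1 or 3 (0.15 and 0.054). The rise of Hoxb9 (0.13 ± 0.04, adjusted p = 0.0065) was between samples listed at 0 and samples at 0.0676 to 0.108 RPKM, far under the filter level.

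**Figure D4:**
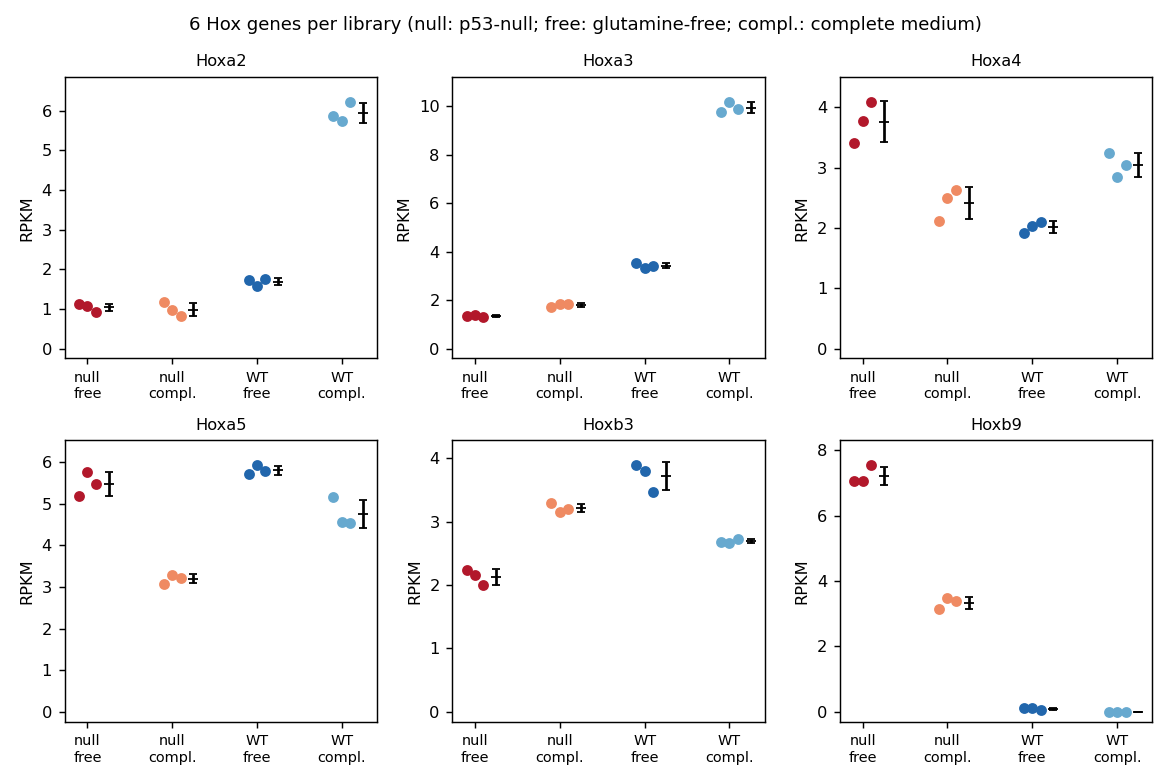
Level in RPKM of Hoxa2, Hoxa3, Hoxa4, Hoxa5, Hoxb3 and Hoxb9 in every sample of the 4 groups (null, p53-null; free, glutamine-free; compl., complete), with the mean ± SD of 3 samples. For Hoxa2 and Hoxa3 the WT complete samples stand above the other 9, Hoxa5 is higher without glutamine in both lines, Hoxa4 is higher without glutamine in p53-null cells and lower without it in WT cells, and Hoxb3 does the reverse.

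The difference between the 2 responses was itself tested, as the p53-null change minus the WT change. It passed for 19 of the 25 genes, 15 of them positive and 4 negative, where 84.9% of all genes passed, 46.4% of all being positive and 38.4% negative. Hoxa2 had the largest, 1.41 (limma, adjusted p = 3.5e-09), and that of Hoxa3 was 1.06 (adjusted p = 1.3e-10): both fell in WT cells and changed by 0.04 and -0.25 in p53-null cells. A difference of at least 1 was positive in 9.98% of all genes and negative in 5.58%, with no Hox gene among the negative ones. Hoxb3 had the largest negative difference, -0.78 (adjusted p = 2.2e-08): it fell in p53-null cells and rose in WT cells. Hoxa4 went the opposite way, with 3.42, 3.78 and 4.09 RPKM in p53-null glutamine-free and 2.11, 2.50 and 2.63 RPKM in p53-null complete samples, against 1.91, 2.03 and 2.10 RPKM in WT glutamine-free and 3.25, 2.85 and 3.04 RPKM in WT complete samples (difference 0.90). For Hoxb5 to Hoxb9 and Hoxc5 to Hoxc9 the difference mostly repeats the p53-null change, because WT cells had almost no signal to move. For Hoxb9 it was 0.79 with a pseudocount of 1 and 0.15 (adjusted p = 0.29) with a pseudocount of 0.1.

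For Hoxa2 and Hoxa3 the lines lay closer together without glutamine, which the tests of the difference above measure. Hoxa2 was at 1.11, 1.07 and 0.934 RPKM in p53-null glutamine-free samples, against 1.72, 1.59 and 1.76 RPKM in WT glutamine-free samples (log2 difference -0.40, limma, adjusted p = 2.6e-05). Hoxa3 was at 1.35, 1.40 and 1.30 RPKM in p53-null glutamine-free samples, against 3.52, 3.32 and 3.40 RPKM in WT glutamine-free samples (-0.91 ± 0.03, adjusted p = 8.8e-12). Hoxa5, the highest Hox gene of the WT line without glutamine, was at 5.18, 5.75 and 5.46 RPKM in p53-null and 5.71, 5.92 and 5.78 RPKM in WT glutamine-free samples, and did not pass (-0.07 ± 0.04, adjusted p = 0.12). The p53-null and WT lines share their samples between these comparisons, so the 2 line comparisons and the 2 medium comparisons are not independent.

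Noncoding transcripts of the Hoxa cluster also fell in WT cells. The table held 11 listed noncoding genes of the Hox clusters, and 3 could be tested. Hoxaas2, a noncoding transcript that overlaps Hoxa3 on the other strand, was at 0.357, 0.519 and 0.487 RPKM in p53-null glutamine-free samples, against 0.432, 0.483 and 0.516 RPKM in p53-null complete samples, groups that overlapped. In WT cells it was at 0.400, 0.513 and 0.623 RPKM without glutamine, against 5.42, 5.44 and 5.52 RPKM in complete medium (log2 change -2.10 ± 0.05, limma, adjusted p = 3.4e-13). Hoxaas2 reached 1 RPKM in the WT complete samples alone. It entered the test through that group and so had to fall, which makes this change a description. Hotairm1, a noncoding transcript known to act in myeloid cells, was at 5.88, 5.73 and 7.86 RPKM in p53-null glutamine-free and 5.82, 5.99 and 5.42 RPKM in p53-null complete samples. It was at 10.3, 14.6 and 15.8 RPKM in WT glutamine-free samples, against 17.7, 21.2 and 17.5 RPKM in WT complete samples (-0.46 ± 0.14, adjusted p = 0.0067). Hoxb5os separated the lines as Hoxb5 did: it was at 1.18 to 1.37 RPKM in p53-null glutamine-free and 1.28 to 1.47 RPKM in p53-null complete samples, and 4 of 6 WT samples were listed at 0.

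Genes outside the clusters were mixed. For the lists from here on, 90.9% and 91.4% of all genes passed between the lines in complete and glutamine-free medium. On withdrawal 82% of all genes passed in p53-null cells and 90.1% in WT cells. The table held 21 listed flanking genes, and 16 were tested. In WT cells 7 rose and 6 fell without glutamine, with a median log2 change of 0.03 beside 0.01 over all genes, and in p53-null cells 9 rose and 4 fell, with a median of 0.12 beside 0.08. Skap2 (chr6:51857422-52012549, minus strand), which encodes an adaptor protein of integrin signalling and lies 143 kb from the Hoxa cluster on its low-numbered side, had the largest fall, in WT cells. In p53-null cells it was at 11.2, 10.3 and 10.4 RPKM without glutamine, against 13.6, 13.9 and 14.5 RPKM in complete medium (-0.37 ± 0.03, adjusted p = 3.5e-07). In WT cells Skap2 was at 10.8, 10.5 and 9.94 RPKM without glutamine, against 47.8, 48.2 and 47.5 RPKM in complete medium (-2.10 ± 0.03, adjusted p = 2.9e-15). The WT complete samples were again the high ones, as for Hoxa2 and Hoxa3. On the other side of Hoxa, 285 kb away, Hibadh, an enzyme of valine breakdown, fell by 0.34 ± 0.03 on the log2 scale in WT cells (adjusted p = 2.9e-08). Tax1bp1, 453 kb away on that side, averaged 32.5 RPKM in WT glutamine-free and 39.2 RPKM in WT complete samples. Snx10, 565 kb away on the Skap2 side, was higher without glutamine, at 17.7 against 13.1 RPKM in WT cells. Hibadh, Tax1bp1 and Snx10 were under the size of change set for naming genes. Snx11, a sorting nexin 399 kb from Hoxb, rose by 1.38 ± 0.04 in WT cells (adjusted p = 3.5e-13).

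The lines differed in which TALE cofactors were high. All 9 were tested. Between the lines in complete medium 5 were higher and 2 lower in p53-null cells, with a median log2 difference of 0.44 beside 0.05 over all genes, and in glutamine-free medium 7 were higher and 2 lower, with a median of 0.64 beside 0.10. Meis2, a Hox partner of the limb and neural crest, was at 9.64, 10.2 and 9.62 RPKM in p53-null glutamine-free and 14.8, 15.1 and 14.7 RPKM in p53-null complete samples, against 4.35, 4.08 and 4.08 RPKM in WT glutamine-free and 3.69, 3.68 and 3.56 RPKM in WT complete samples. Meis3, known from hindbrain patterning, averaged 10.6 ± 0.743 and 11.2 ± 0.0482 RPKM in p53-null glutamine-free and complete samples, against 2.82 ± 0.181 and 2.47 ± 0.150 RPKM in WT glutamine-free and complete samples. Pknox2 was at 1.78 to 1.94 RPKM in p53-null glutamine-free and 2.43 to 2.60 RPKM in p53-null complete samples, against at most 0.172 RPKM in WT samples. In complete medium the log2 differences of Meis3, Meis2 and Pknox2 were 1.82 ± 0.05, 1.77 ± 0.03 and 1.64 ± 0.04 (limma, adjusted p = 4.9e-13, 6e-15 and 1.5e-13). Meis1, needed for blood stem cells, was the reverse, at 0.691, 0.580 and 0.700 RPKM in p53-null glutamine-free samples, against 3.30, 3.33 and 3.48 RPKM in WT glutamine-free samples (-1.40 ± 0.04, adjusted p = 4.5e-13). Pknox2 passed the filter through the p53-null samples alone and Meis1 through the WT samples alone, so their differences are a description. Without glutamine 2 of the 9 rose and 6 fell in p53-null cells, with a median of -0.29 beside 0.08 over all genes, and 5 rose and 4 fell in WT cells, with a median of 0.14 beside 0.01. Pbx2 fell in both lines. It was at 13.7, 14.1 and 12.8 RPKM in p53-null glutamine-free samples, against 17.5, 17.4 and 18.2 RPKM in p53-null complete samples (-0.36 ± 0.03, adjusted p = 2e-07). In WT cells Pbx2 was at 8.10, 8.41 and 8.45 RPKM without glutamine, against 17.5, 17.5 and 17.3 RPKM in complete medium (-0.99 ± 0.03, adjusted p = 2.6e-12). It was named after its values were seen.

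**Figure D5:**
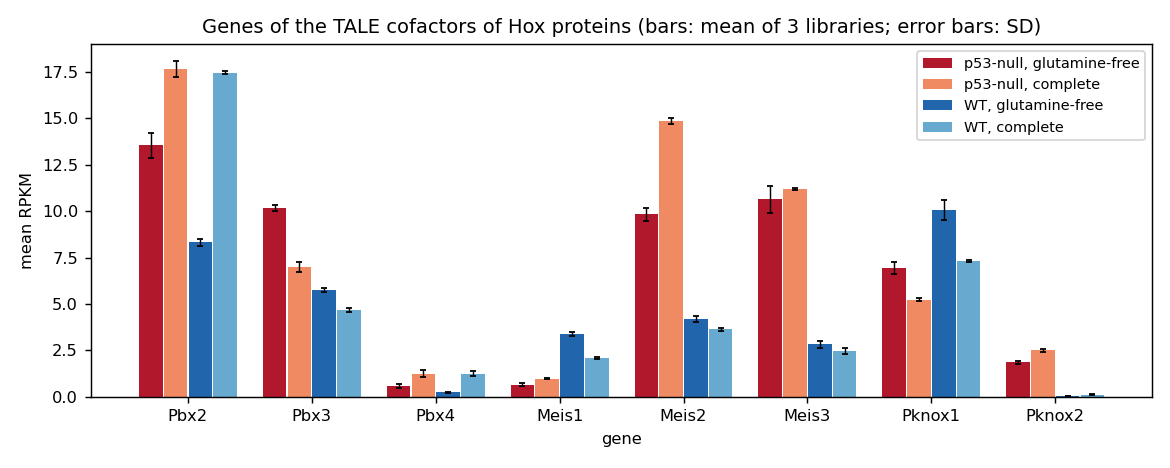
Mean level in RPKM (bars, ± SD of 3 samples) of TALE cofactor genes in the 4 groups. Meis2, Meis3 and Pknox2 are higher in the p53-null groups, Meis1 and Pknox1 are higher in the WT groups, and Pbx2 is lower without glutamine in both lines.

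The chromatin regulators that hold Hox patterns all reached the filter. Of 22 Polycomb genes, 9 were higher and 8 lower in p53-null cells in complete medium, with a median log2 difference of 0.01 beside 0.05 over all genes. By 1 or more on the log2 scale 1 was higher and 4 were lower, beside 9.14% and 10.9% of all genes. Phf19, an accessory protein of the H3K27 methylating complex, was at 2.25 to 2.53 RPKM in p53-null and 11.2 to 12.1 RPKM in WT complete samples (-1.92 ± 0.05, limma, adjusted p = 2.5e-13). Ezh1, the second methyltransferase of that complex, was at 1.30 to 1.63 RPKM in p53-null and 8.03 to 8.28 RPKM in WT complete samples (-1.91 ± 0.04, adjusted p = 1.3e-13). Bmi1, a core member of the H2A ubiquitinating complex, was at 27.7 to 29.7 RPKM in p53-null and 10.2 to 10.7 RPKM in WT complete samples (1.39 ± 0.03, adjusted p = 9.2e-14). Cbx7, a reader of H3K27 methylation, was at 0.0147 to 0.0517 RPKM in p53-null and 1.06 to 1.51 RPKM in WT complete samples (-1.12 ± 0.06, adjusted p = 5e-10). Cbx7 reached 1 RPKM in the WT complete samples alone, so it entered the test through that group and had to be higher there. Without glutamine 11 Polycomb genes rose and 7 fell in p53-null cells, with a median of 0.10 beside 0.08, and 14 rose and 6 fell in WT cells, with a median of 0.18 beside 0.01. In WT cells Bmi1 averaged 24.2 ± 1.05 RPKM without glutamine and 10.4 ± 0.210 RPKM in complete medium (1.14 ± 0.03, adjusted p = 6.1e-13). Phc1, of the same complex, averaged 6.19 ± 0.155 RPKM without glutamine and 15.4 ± 0.700 RPKM in complete medium (-1.19 ± 0.03, adjusted p = 7.1e-13). Of 10 trithorax and MLL genes, 7 rose and 2 fell in p53-null cells and 6 rose and 2 fell in WT cells, with medians of 0.43 beside 0.08 and 0.12 beside 0.01. Wdr5, a core subunit of the H3K4 methyltransferases, averaged 49.6 ± 0.599 RPKM in WT glutamine-free and 19.2 ± 0.341 RPKM in WT complete samples (1.33 ± 0.02, adjusted p = 2e-16).

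Other transcription factors of body regions also separated the lines. Of 42 such genes listed 37 were in the table and 23 were tested. In complete medium 8 were higher and 15 lower in p53-null cells, with a median log2 difference of -1.28 beside 0.05 over all genes. Over all genes 48.4% were higher and 42.5% lower, so passing the test does not set these 23 genes apart. By 1 or more on the log2 scale 5 were higher and 13 lower, beside 9.14% and 10.9% of all genes. Many of the 23 passed the filter through a single line and so had to differ. Foxd1, a gene of kidney stroma and facial mesenchyme, was at 0.344 to 0.376 RPKM in p53-null and 36.9 to 37.8 RPKM in WT complete samples. Tbx18, a gene of somites and the epicardium, was at 0.416 to 0.538 RPKM in p53-null and 17.2 to 17.7 RPKM in WT complete samples. Prrx2, a gene of limb and face mesenchyme, was at 1.07 to 1.27 RPKM in p53-null and 24.4 to 26.4 RPKM in WT complete samples. Pax9, a gene of the vertebrae, the pharyngeal pouches and the teeth, was listed at 0 in 2 of 3 p53-null complete samples and was at 12.65 to 13.02 RPKM in WT complete samples. In the other direction, Wt1, a gene of the kidney and the body-cavity lining, was at 7.49 to 7.77 RPKM in p53-null complete samples and listed at 0 in all 6 WT samples. Barx1, a gene of the jaw and the stomach wall, was at 3.23 to 3.57 RPKM in p53-null complete samples and listed at 0 in all 6 WT samples. Pitx1, the hindlimb gene, was at 3.07 to 3.40 RPKM in p53-null complete samples and listed at 0 in the 3 WT complete samples.

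Without glutamine 8 of these 23 genes rose and 6 fell in p53-null cells, and 4 rose and 13 fell in WT cells, with medians of 0.02 beside 0.08 and -0.54 beside 0.01. Over all genes 50% rose and 32% fell in p53-null cells, and 46% rose and 44% fell in WT cells. Prrx2 averaged 2.25 ± 0.259 RPKM in WT glutamine-free and 25.7 ± 1.07 RPKM in WT complete samples (-3.04 ± 0.07, limma, adjusted p = 1.3e-13). Foxc1, a gene of somites and the eye, averaged 5.01 ± 0.109 RPKM in WT glutamine-free and 28.7 ± 0.403 RPKM in WT complete samples (-2.31 ± 0.03, adjusted p = 2.2e-16). Emx2, a gene of the forebrain and the urogenital tract, went the other way, with 28.1 ± 0.672 RPKM in WT glutamine-free and 5.95 ± 0.268 RPKM in WT complete samples (2.07 ± 0.03, adjusted p = 1.7e-15).

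Of 11 head and neural homeobox genes 4 were tested, and in complete medium 2 were higher and 1 lower in p53-null cells. Over all genes 48.4% were higher and 42.5% lower. By 1 or more on the log2 scale 1 of the 4 was higher and 1, En1, was lower. En1, a midbrain and ventral limb gene, was listed at 0 in all 3 p53-null complete samples and was at 2.58 to 2.66 RPKM in WT complete samples. Of 7 tested genes of the retinoic acid pathway, a main regulator of Hox genes in the embryo, 3 were higher and 4 lower in p53-null cells in complete medium. The median log2 difference was -0.49 beside 0.05 over all genes, of which 90.9% passed. By 1 or more on the log2 scale 1 was higher and 1, Cyp26b1, was lower, beside 9.14% and 10.9% of all genes. Cyp26b1, which breaks down retinoic acid, averaged 1.05 ± 0.0221 RPKM in p53-null and 3.88 ± 0.139 RPKM in WT complete samples (-1.25 ± 0.03, adjusted p = 2.5e-13). In glutamine-free medium it averaged 1.94 ± 0.00333 RPKM in p53-null and 1.98 ± 0.0750 RPKM in WT samples and did not pass (adjusted p = 0.54). Without glutamine 2 of the 7 retinoic acid pathway genes rose and 2 fell in p53-null cells, and 3 rose and 3 fell in WT cells. Their medians were 0.01 beside 0.08 and -0.02 beside 0.01 over all genes, of which 82% and 90.1% passed. None of the ParaHox and caudal genes in the table, 2 of 6 listed, reached the filter.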

How the data were processed

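Libraries were made with the TruSeq RNA V2 kit, per the labels' protocols; it does not mark strand. CASAVA 1.8, HISAT2 2.0.4, Partek and the mm10 build are named, per the submitters' processing notes. How shared reads were counted, and with which annotation, is not given in the sources used here. The authors deposited 1 RPKM value per gene and sample (unit: RPKM), scaled by gene length and mapped reads.

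Some genes of these lists are not reported here by name, and the counts include them. The Hox genes and all gene lists were chosen with earlier results of these data known. Values were used as log2(RPKM + 1), so a fold change understates that of low genes. Genes that reached 1 RPKM in 3 or more of 12 samples, 11461 in all, were fitted with limma 3.58.1 in R 4.3.3 on 4 group means with a mean-variance trend. A gene was called at a Benjamini-Hochberg adjusted p under 0.05 over all genes tested, within each of 5 comparisons. The fitting steps were tested on simulated data. A level at or above 1 RPKM counted as expression.

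Hox genes were named with all values where they were called with an absolute log2 change of at least 1, or were the highest of a cluster in a line; other genes where called with such a change, at most 4 per list and comparison. Coordinates and overlaps are from GENCODE M21 on GRCm38, promoters from RefSeq. The alternatives were other pseudocounts, filters and scalings, no trend, the replicate number as a block, and leaving out each sample.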

Additional observations from a re-analysis of the deposited data

Results flagged for a closer look

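For the Hox genes given here the response to glutamine withdrawal differed between the lines by the test of the difference itself, as log2 change in p53-null cells minus log2 change in WT cells (limma, adjusted p under 0.05). Among genes on in both lines it was 1.41 for Hoxa2, 1.06 for Hoxa3, 0.90 for Hoxa4, 0.57 for Hoxa10, 0.42 for Hoxb4, 0.38 for Hoxa5, 0.36 for Hoxa7, -0.24 for Hoxa9 and -0.78 for Hoxb3. Hoxa3 fell in both lines and more in WT cells, Hoxa9 rose in both and more in WT cells, and Hoxa4 and Hoxb3 moved in opposite directions in the 2 lines.

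Among genes at or near 0 in WT cells it was 0.79 for Hoxb9, 0.38 for Hoxc9, 0.36 for Hoxb7, 0.29 for Hoxb8, 0.27 for Hoxb6, 0.14 for Hoxc6, 0.13 for Hoxc8, -0.24 for Hoxc5 and -0.58 for Hoxb5. In these, WT cells had almost no level that could change. Groups of 3 samples were too small for a check of single outlying samples.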

How the results depend on the processing

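Each of 95 called gene results was recomputed under 20 alternatives. Of those 1900 values 38 lost the call, over 14 results, and 3 turned sign, all after quantile normalization: Hoxa7 in WT cells at 0.083, Hoxa10 in WT cells at 0.052 and the response difference of Hoxc6 at -0.0085. None of the 3 turned values was called. Of 30 results not called, 10 were called under some alternative. With a pseudocount of 0.1 the response differences of Hoxb6, Hoxb7, Hoxb9, Hoxc6 and Hoxc8 were no longer called, and those called were 10 positive and 4 negative. After median centring they were 12 positive and 5 negative. In WT cells quantile normalization gave 6 rises and 4 falls. Every count of Hox genes called stayed within 1.5 times. When each sample was left out in turn, calls were lost for Hoxa9 and Hoxd4 in p53-null cells and Hoxa7 in WT cells, as given with those genes, and for 1 response difference. The response difference of Hoxc8 (0.13) lost its call without p53-null complete sample 2 (0.11, adjusted p = 0.056) or p53-null glutamine-free sample 1 (0.10, adjusted p = 0.058).

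Rescaling every sample to the same RPKM sum moved cluster sums by more than their SD. Hoxa became 30.1 and 21.8 RPKM in p53-null glutamine-free and complete samples, against 22.6 and 34.7 RPKM in WT glutamine-free and complete samples. In p53-null glutamine-free and complete samples Hoxb became 44.1 and 34.4, Hoxc 42.8 and 38.6, and Hoxd 8.11 and 7.59 RPKM. Over all genes the median line difference without glutamine was 0.10 as deposited, 0.23 after that rescaling and -0.03 after median centring. Same-numbered samples did not deviate together: over 18 pairs r ran from -0.11 to 0.09. These correlations cannot show whether same-numbered samples were grown or handled together. With the replicate number as a block, 16 Hox response differences were positive and 4 negative, the addition being Hoxa6 (0.22, adjusted p = 0.036).

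The depth behind each value is unknown, so no counting interval is given and a value listed at 0 sets no limit. All values come from 1 line per genotype and 1 time.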
